A study of Homo sapiens with 4 samples.

Results

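The RNF genes encode proteins named for a RING finger, a small zinc-binding fold, and their response to a miR-335 mimic was examined in GIST-T1 cells, an established cell line from a gastrointestinal stromal tumor. Members were all genes whose name on the array is RNF followed by a number and at most 1 letter. There were 82 such genes on 121 probes, of 36337 gene names on 50599 non-control probes, and each gene was represented by its brightest probe. Of the 82 genes, 56 had 1 probe and 26 had more. Cells were transfected by electroporation with 100 pmol of either a mirVana miR-335 mimic, a synthetic double-stranded RNA that takes the place of the cell's own microRNA, or mirVana Negative Control #1, and total RNA was taken 48 h later. Both groups were otherwise treated alike, and each was represented by 2 one-color arrays. The labels do not say whether the 2 arrays of a group came from separate cultures, so p-values measure only the spread between these arrays, which may be technical. The description of the mimic samples also carries the name of a miR-34a mimic, whereas their title and transfection label give miR-335, and the latter was followed.

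Ubiquitin is passed from an activating enzyme (E1) to a conjugating enzyme (E2) and then, with the help of a ligase (E3), to a substrate protein. In most RING ligases the RING binds the loaded E2 and the ubiquitin moves straight to the substrate, whereas RING-between-RING ligases first take it onto a cysteine of their own. The chain that is built decides whether the substrate is degraded by the proteasome, moved to the lysosome or used as a signaling platform. RNF is a naming series and not an evolutionary family, so it holds chromatin, membrane and cytosolic ligases side by side, and a ligase activity has not been shown for every member.

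A microRNA recognises transcripts mainly through its seed, bases 2 to 8. The labels do not say which arm of miR-335 the mimic carries, and so both RefSeq mature sequences are given, with the seed in capitals. They lie on the plus strand of chromosome 7 (GRCh38.p14), the 5p arm at chr7:130496126-130496148 and the 3p arm at chr7:130496162-130496183.
hsa-miR-335-5p: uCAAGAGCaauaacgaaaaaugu
hsa-miR-335-3p: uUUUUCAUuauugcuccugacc
The 5p seed pairs with GCTCTTG and the 3p seed with ATGAAAA in a transcript. The 60-base array probes have the sense of the transcript but cover only a small part of it. GCTCTTG was found in 0 of the 121 RNF probes, against 0.437% of all 50599 probes. Its last 6 bases, CTCTTG, were in 1 RNF probe (0.826%), against 1.92% of all. ATGAAAA was also in 1 RNF probe (0.826%, against 1.22% of all), and its last 6 bases, TGAAAA, were in 7 (5.79%, against 4.52%). The RNF216 probe with the 5p match, which is not that gene's brightest, and the RNF4 probe with the 3p match are shown. They are the closest matches to each seed in the set, and these last 6 bases are in capitals.
RNF216: ctaaattgactcCTCTTGaccagc
RNF4: gaaaggttggtaTGAAAAaatgtctttcct
The RNF216 probe had a log2 change of 0.03 (limma adjusted p = 0.772) and the RNF4 probe one of -0.14 (adjusted p = 0.154). A match in a probe is not a shown binding site, and the rest of the transcripts was not analysed here.

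Each array had between 20386 and 21214 probes well above background, and the 75th percentile of processed intensity ranged from 178.8 to 189.7. The GIST markers KIT, ANO1, ETV1, PRKCQ, PDGFRA and CD34 were well above background on all 4 arrays, whereas PTPRC (leukocytes), CDH1 (epithelium), PECAM1 and VWF (endothelium) were on none. EPCAM was dim but detected on all 4. All arrays lay on 1 slide scanned once, with the controls at positions 1 and 2 and the mimic arrays at 3 and 4, so that position on the slide and group cannot be told apart. Signals are given below as log2 processed signal minus the 75th percentile of the array, and a change is the mimic mean minus the control mean on that scale.

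Of the 82 RNF genes, 64 were well above background on all 4 arrays, 9 on 1 to 3 arrays and 9 on none. Testing required a signal well above background on the 2 arrays of either group, which held for 68 genes. The 14 genes not tested included RNF17, RNF39, RNF112, RNF113B, RNF128, RNF133, RNF135, RNF144B, RNF151, RNF183, RNF186, RNF212 and RNF223. RNF128, known for its role in T cell anergy, was not well above background on any array. A single array stood apart for some of these genes. RNF183 was at -1.24 and RNF212 at -0.94 on control array 1 but at or below -5.08 on the other 3 arrays. RNF144B was at 0.90 and RNF39 at -2.05 on mimic array 1 only, against at most -2.79 and -4.99 on the others. Between 249 and 305 probes of the whole array exceeded the other 3 arrays by more than 2 log2 units on a given array, so such isolated signals were not particular to RNF genes.

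Transcripts of 3 RNF genes fell after the mimic and none rose by limma's test. RNF141, RNF182 and RNF122 were lower at a Benjamini-Hochberg adjusted p under 0.05 across all 20328 tested probes. They made up 4.41% of the 68 tested genes, against 1.15% of all probes called lower (233 probes) and 1.34% when every gene had 1 probe. RNF182 entered the test only through its control arrays, since it was not well above background with the mimic. With detection required on all 4 arrays, limma called RNF141 and RNF122, 2 of 64 genes (3.12%), against 1.49% of probes, and the share of 4.41% is therefore given as a description. In the other direction limma called 0 RNF genes, against 1.47% of all probes and 1.42% with 1 probe per gene. At an unadjusted p under 0.05, limma had 13 RNF genes lower (19.1%, against 13.7% of all probes) and 2 higher (2.94%, against 11.7%). Of the lower ones, RNF182 and RNF144A were well above background on neither mimic array and RNF224 on 1. They were tested only through their control arrays. With detection required on all 4 arrays, 12 of 64 genes were under that limit in either direction, against 4991 of 19352 probes. In an unadjusted form, the methods' t-test had 11 of the 68 genes lower, against 11.0% of all probes, and 2 higher, against 9.27%, and after Benjamini-Hochberg adjustment it called no probe of the array. For a single gene the exact permutation test over 4 arrays has a smallest two-sided p of 0.333. Calls therefore rest on limma's pooled spread, and 0 RNF genes were called when any 1 array was left out or when dim probes were kept in the fit. These zeros were nearly those of the whole array, where limma called 0 probes lower and 0 to 8 higher without any 1 array, and 0 of 50526 probes with the dim ones kept.

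RNF141, a zinc finger protein described in the testis and otherwise little studied, had the largest change among the genes detected on all 4 arrays. Its only probe lies at chr11:10533514-10533573 (hg19, minus strand). Its signal was 2.31 and 2.37 on the mimic arrays and 3.64 and 3.55 on the control arrays. The groups lay far apart, since every pairing of a mimic with a control array differed by between -1.33 and -1.18. The change was -1.25 ± 0.05 (SE, n = 2 per group), a 2.39-fold lower level (adjusted p = 0.0314, limma). A larger fall was seen for 34 of the 20328 tested probes. Without each array in turn the change was between -1.30 and -1.21, with adjusted p between 0.127 and 0.189.

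RNF182, a membrane-bound ligase described mainly in brain, was a dim transcript. It was at -1.84 and -2.01 on the control arrays and at -3.26 and -3.10 on the mimic arrays, where it was not well above background. Only an approximate bound can therefore be given, a fall of 2.13-fold (2.01 to 2.26 for single control arrays). The limma adjusted p of 0.0351 rests on mimic signals not well above background and on a probe tested through its control arrays alone. For this bound each mimic array was given its measured signal or the dimmest signal well above background of any probe, whichever was higher. That floor is not a strict detection limit. On mimic array 2 the dimmest such signal was -2.93, whereas RNF144A at -2.78 was not well above background. The fall of RNF182 could therefore be smaller than this bound. The measured change of -1.25 became -0.38 under normexp background correction, still with an adjusted p under the threshold (0.00822).

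RNF122, a small transmembrane ligase of the endoplasmic reticulum and Golgi, fell less. Its signal was -0.76 and -0.71 with the mimic and -0.33 and -0.30 in the controls. The groups did not overlap, and the change was -0.42 ± 0.04 (SE, n = 2 per group), a 1.34-fold lower level with a limma adjusted p of 0.0446. Under normexp it was -0.27 (adjusted p = 0.0193).

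**Figure D1:**
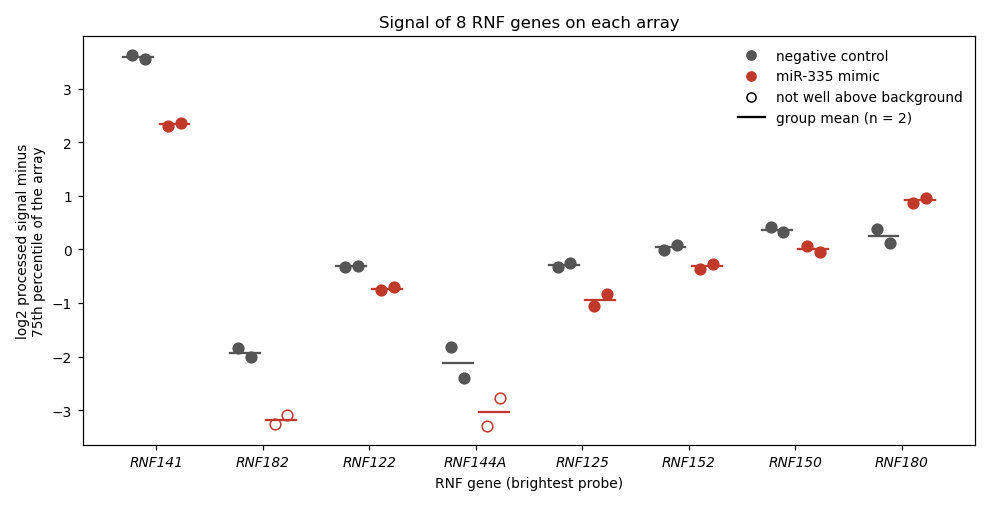
Normalized log2 signal of 8 RNF genes on each array (points; open where not well above background), with the mean of each group of 2 arrays as a line. RNF141 shows no overlap and a change of -1.25, RNF182 and RNF144A are not well above background on both mimic arrays, and RNF180 is the only gene of the 8 that was higher with the mimic.

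**Figure D2:**
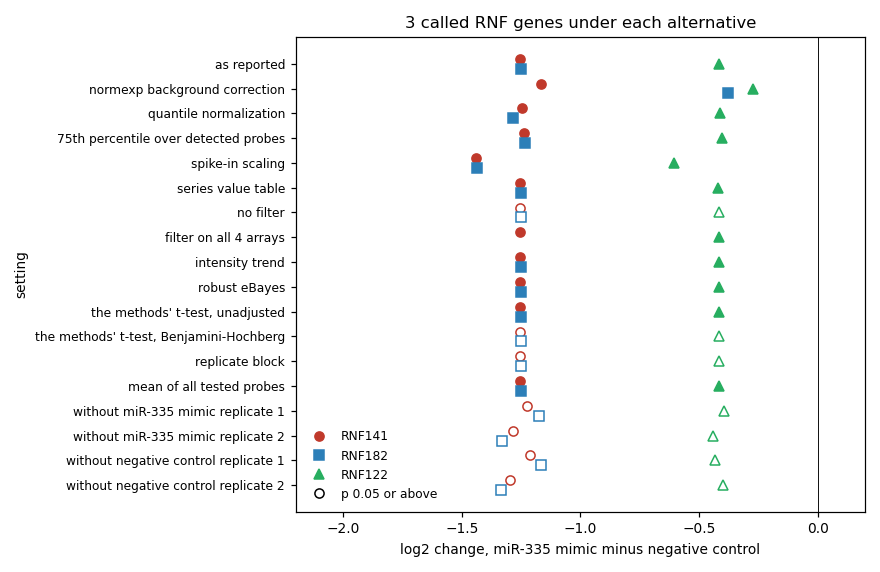
Log2 change of RNF141, RNF182 and RNF122 under each processing alternative; filled symbols have a p under 0.05 (adjusted, except where the setting says otherwise). All values are negative, RNF141 stays between -1.44 and -1.17, and RNF182 shrinks to -0.38 under normexp background correction.

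By size alone, 4 RNF genes were over 1.5-fold lower (5.88%, against 1.47% of all tested probes) and 1 was over 1.5-fold higher (1.47%, against 2.43%). The 4 were RNF141, RNF182, RNF144A and RNF125, and the 1 was RNF180. RNF182 and RNF144A were tested only through their control arrays, and with detection required on all 4 arrays 2 of 64 genes (3.12%) were over 1.5-fold lower, against 0.904% of probes. RNF144A, a RING-between-RING ligase that acts on the DNA-dependent protein kinase, was at -1.83 and -2.41 in the controls and at -3.30 and -2.78, not well above background, with the mimic. Its replicates were far apart, and although the groups did not overlap it did not pass the test (limma adjusted p = 0.174). By the same approximate bound as for RNF182 it was 1.77-fold lower. RNF125, a ligase that marks the RNA sensor RIG-I for degradation, was at -1.06 and -0.84 with the mimic and at -0.33 and -0.25 in the controls. This is a change of -0.66 ± 0.09 (SE, adjusted p = 0.069). RNF180, known as Rines and a ligase for monoamine oxidase A, had the largest positive change, with 0.87 and 0.97 with the mimic against 0.38 and 0.11 in the controls. All pairings gave a positive difference, from 0.49 to 0.85, but the change of 0.67 ± 0.11 (SE) did not pass the test (adjusted p = 0.0814). These values rest on the brightest RNF180 probe, annotated to transcript ENST00000381081. The other RNF180 probes, annotated to NM_178532 and NM_001113561, were not well above background on any array.

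Most members had small changes. The median change over the 68 tested genes was -0.02, against -0.01 for all tested probes, and the quartiles were -0.10 and 0.03, against -0.11 and 0.09. The change was under 0.1 in size in 43 of the genes (63.2%), against 49.6% of all tested probes. The median size of the change was 0.06, similar to the median gap between replicate arrays of the same genes (0.05 for the mimic and 0.07 for the control). Negative changes numbered 43 and positive ones 25, so that 63.2% were negative, against 53.8% of all probes. Groups did not overlap in 21 genes that were lower (30.9%, against 32.5% of all probes) and in 13 that were higher (19.1%, against 27.1%). Scaling to the spike-in probes added a constant -0.19 to every change, moving the median of all probes to -0.20. On that scale the 25 positive changes shrank to 3 and limma called 41 RNF genes lower and 1, RNF180, higher, against 44.6% and 2.54% of all probes. All changes below are relative to the 75th percentile, and a positive value under 0.19 would be negative on the spike-in scale.

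**Figure D3:**
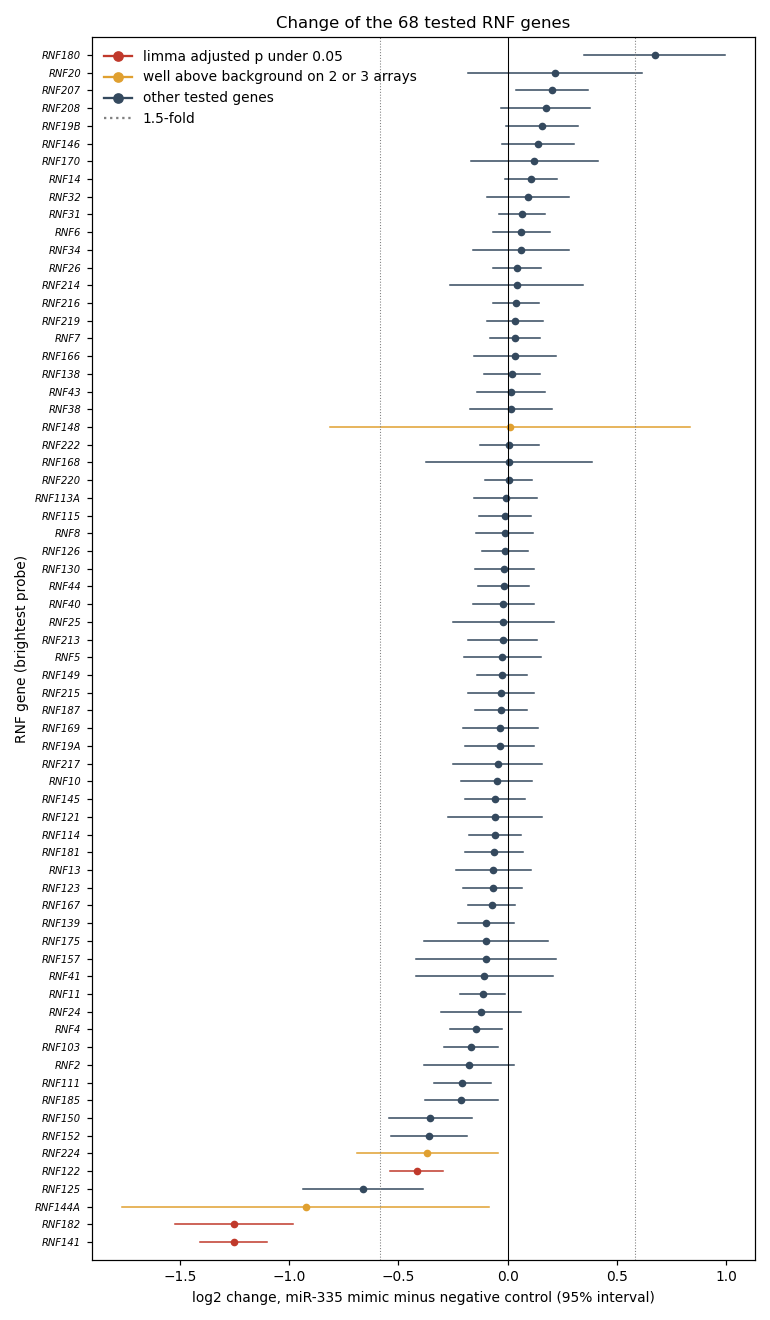
Log2 change (mimic minus control, brightest probe) of the 68 tested RNF genes with 95% limma intervals. RNF141, RNF182 and RNF122 (red) passed the adjusted threshold, and most genes lie within 0.1 of 0; on the spike-in scale every point would sit 0.19 further left.

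Among the ligases of chromatin and the nucleus, 8 of 8 genes were tested and limma called none in either direction, with 2 lower and 0 higher at an unadjusted p under 0.05. Over all tested probes limma had 13.7% lower and 11.7% higher at that limit. The same shares stand beside the small counts of each group below, which are only descriptions. The median change was -0.03 and the range -0.21 to 0.22. RNF2 is the catalytic subunit of Polycomb repressive complex 1, which places ubiquitin on histone H2A. It was at 0.12 and 0.08 with the mimic and at 0.20 and 0.36 in the controls (change -0.18, adjusted p = 0.243), and its second probe gave -0.22. RNF20 and RNF40 together ubiquitinate histone H2B. RNF20 had a change of 0.22 (adjusted p = 0.394), which came from mimic array 1 at 0.22, while mimic array 2 at -0.13 was next to the controls at -0.21 and -0.14. RNF40 had a change of -0.02, with a 95% interval of -0.16 to 0.12. RNF8 and RNF168 act in turn at DNA breaks. RNF8 had a change of -0.01 (interval -0.14 to 0.12), and the dim RNF168 one of 0.01 with a wide interval of -0.37 to 0.39. RNF4 and RNF111 (Arkadia) both recognise SUMO-modified proteins. RNF4 had a change of -0.14 (adjusted p = 0.154) and RNF111 one of -0.21 (adjusted p = 0.115), with the mimic arrays of each below its control arrays.

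Of the ligases tied to membrane protein quality control and the endoplasmic reticulum, 8 of 8 were tested and limma called 0, with 2 lower and 0 higher at an unadjusted p under 0.05. Their median was -0.06 and their range -0.21 to 0.12. RNF5 and RNF185 are close relatives that help to clear misfolded membrane proteins. RNF185 was at -1.28 and -1.21 with the mimic and at -0.99 and -1.08 in the controls (change -0.21, adjusted p = 0.146). RNF5 was at 4.16 and 4.12 against 4.23 and 4.10, a change of -0.02 with an interval of -0.20 to 0.15. RNF139 (TRC8), a sterol-sensing ligase, had a change of -0.10 (adjusted p = 0.277), and RNF170, which acts on inositol trisphosphate receptors, one of 0.12 (adjusted p = 0.503).

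The RING-between-RING ligases had 7 of 8 members tested, with a median of 0.04, and limma called 0. At an unadjusted p under 0.05 limma had 1 lower (RNF144A, tested only through its control arrays) and 0 higher. RNF31 (HOIP) is the ligase that builds linear ubiquitin chains in NF-κB signaling. It was at 2.37 and 2.35 with the mimic and at 2.29 and 2.29 in the controls (change 0.07, interval -0.04 to 0.17). RNF14, a coactivator of the androgen receptor, had a change of 0.11 (adjusted p = 0.232), while its second tested probe gave -0.01. RNF19B, a ligase first described in natural killer cells, had one of 0.16 (adjusted p = 0.209).

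The protease-associated transmembrane ligases carry a lumenal domain ahead of the RING, and 7 of 9 were tested. Limma called 0 of them, with 1 lower (RNF150) and 0 higher at an unadjusted p under 0.05, and the median was -0.03. RNF150 was at 0.07 and -0.04 with the mimic and at 0.42 and 0.32 in the controls. The groups did not overlap, but the change of -0.35 ± 0.07 (SE) did not pass the test (adjusted p = 0.0944). RNF43, which removes Wnt receptors from the cell surface, had a change of 0.02, with an interval of -0.14 to 0.17, and RNF130 (Goliath) one of -0.01, with an interval of -0.15 to 0.12. RNF148 was detected on both mimic arrays and 1 control array, with a change of 0.01 and an interval of -0.81 to 0.84.

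In the RNF114 family, a set of short ligases with a RING and zinc fingers, all 4 members were tested and limma called 0, with 1 lower (RNF125) and 0 higher at an unadjusted p under 0.05. RNF114 was at 2.69 and 2.74 with the mimic against 2.78 and 2.76 in the controls (change -0.06, interval -0.18 to 0.06). RNF138 and RNF166 had changes of 0.02 and 0.03, and RNF125, at -0.66, was the lowest of the 4.

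The other 34 tested genes held all 3 called falls. RNF152, a lysosomal ligase of the mTORC1 pathway, was at -0.36 and -0.27 with the mimic and at -0.0049 and 0.09 in the controls, a change of -0.36 ± 0.06 (SE, adjusted p = 0.0825). RNF224 was well above background on 1 mimic array and both control arrays, and its change of -0.37 had an adjusted p of 0.168. RNF207, described in the heart, was at -1.09 and -1.16 with the mimic and at -1.28 and -1.38 in the controls (change 0.20, adjusted p = 0.152). RNF146, a ligase that recognises poly(ADP-ribose) and controls axin, had a change of 0.14 (adjusted p = 0.246). RNF11, an adaptor of NEDD4-type ligases, was at 5.05 on both mimic arrays, against 5.15 and 5.17 in the controls (change -0.11, adjusted p = 0.174). RNF7, the catalytic RING subunit of cullin-5 ligases, was at 6.93 and 6.96 with the mimic and 6.89 and 6.93 in the controls, a change of 0.03 with an interval of -0.08 to 0.15. Apart from these, RNF141, RNF182, RNF122, RNF180, RNF208 and RNF213, the remaining 22 genes of this set had changes from -0.12 (RNF24) to 0.09 (RNF32). RNF32 and RNF126, named below for their probes, are among the 22. On the brightest probes limma called none of the 22, with 0 at an unadjusted p under 0.05. A second RNF126 probe gave -0.13 (limma unadjusted p = 0.0321, adjusted p = 0.162).

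**Figure D4:**
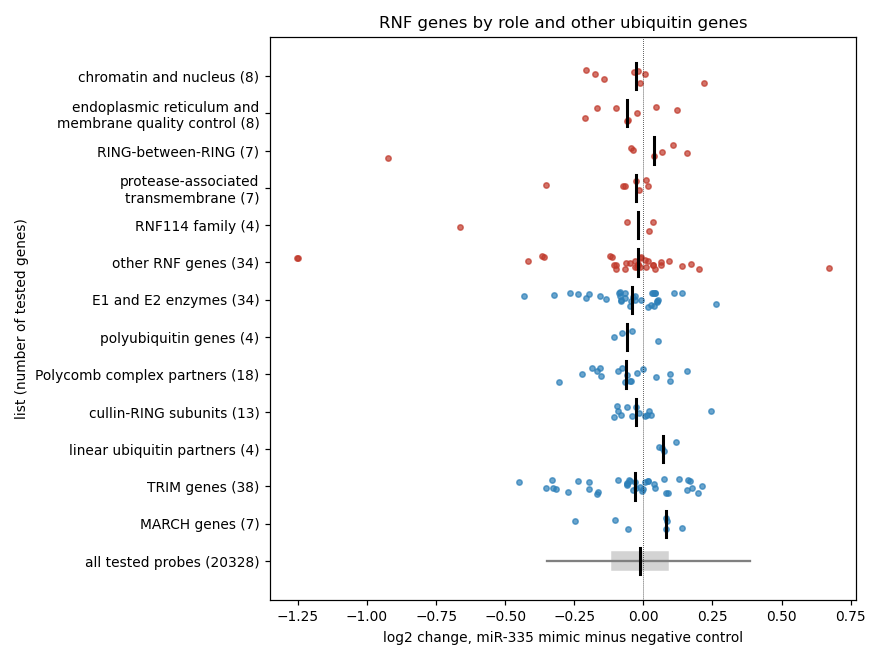
Log2 change of each tested RNF gene by role (red) and of genes of other ubiquitin lists (blue), with the list median as a bar; the lowest row gives the median, quartiles (box) and 5th to 95th percentiles (line) of all tested probes. List medians lie between -0.06 and 0.08, and would all be negative on the spike-in scale; the large changes are single genes.

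Of the 26 genes with several probes, 13 had more than 1 tested probe. In 6 of these (RNF7, RNF14, RNF32, RNF126, RNF208 and RNF213) tested probes differed in sign, but no gene had changes more than 0.5 apart. RNF213, the large ATPase and ligase known from moyamoya disease, had the widest range. Its brightest probe was at 0.77 and 0.77 with the mimic and at 0.85 and 0.73 in the controls, a change of -0.02 with an interval of -0.18 to 0.14. Its 4 other tested probes were all dim, with group means between -2.72 and -2.12. They gave changes of 0.36, 0.31, 0.47 and 0.27, with adjusted p between 0.139 and 0.493. Those at 0.36 and 0.31 had limma unadjusted p of 0.0221 and 0.0397. Those at 0.47 and 0.27 were well above background on only 1 control array, and were tested only through the mimic arrays. The brightest probe is annotated to transcript NM_020954 and the others to NM_020914. RNF208 had a change of 0.17 (adjusted p = 0.24) on its brightest probe, 0.15 on another probe that covers nearly the same bases, and -0.30 on the dimmest of its tested probes. RNF141, RNF182 and RNF122 each had a single tested probe, so no second probe could be set beside their falls.

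**Figure D5:**
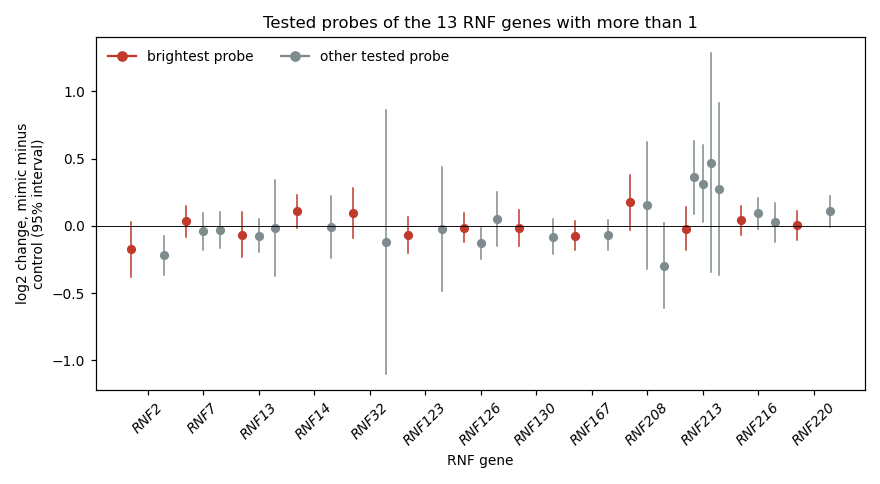
Log2 change with 95% interval of every tested probe of the 13 RNF genes that had more than 1, with the brightest probe in red. Most genes have probes within 0.2 of each other, and RNF208 and RNF213 have the widest ranges.

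Other genes of the ubiquitin system were set beside the RNF genes. Of 34 tested E1 and E2 enzymes, limma called 1 lower and 0 higher (5 lower and 1 higher at an unadjusted p under 0.05), with a median of -0.04. The called gene was the E2 enzyme UBE2G1. It was at 2.31 and 2.35 with the mimic and at 2.78 and 2.74 in the controls (change -0.43 ± 0.04, SE, adjusted p = 0.0419). The 4 polyubiquitin genes (median -0.06), 18 partners of RNF2 in Polycomb repressive complex 1 (-0.06), 13 cullin-RING subunits (-0.03), 4 genes of the linear ubiquitin system beside RNF31 (0.07), 38 TRIM genes (-0.03) and 7 MARCH genes (0.08) had 0 calls in limma. At an unadjusted p under 0.05 the Polycomb list had 5 lower and 1 higher, the TRIM genes 5 and 4, the linear ubiquitin list 0 and 1, and the other 3 lists none. Over all tested probes limma had 13.7% lower and 11.7% higher at that limit, so the counts of these lists and of the E1 and E2 enzymes are only descriptions. The lowest value in the Polycomb list was that of PCGF5 (change -0.30, adjusted p = 0.0759). The linear ubiquitin genes were all positive, from 0.06 to 0.12, on the 75th percentile scale and all negative on the spike-in scale.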

How the data were processed

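Gene expression was measured in 2 mimic and 2 control samples of GIST-T1 cells with 100 ng of total RNA per Agilent one-color array. The deposited scanner files hold spot intensity values from Feature Extraction 10.7.3.1, per the file headers, which the authors' software had background-subtracted and detrended within each array. The deposited flags for control spots, outlier spots and detection, a coded value other than intensity, were used as given, as were gene names and hg19 coordinates. The series value table holds the same intensity values rounded, and was used as 1 alternative. Precision is limited by the small number of arrays.

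Outlier spots (356 to 395 per array) were left out, replicate spots of a probe were averaged, and log2 signals were centred on the 75th percentile of each array. The 20328 probes that were well above background on the 2 arrays of either group were fitted in R 4.3.3 by limma 3.58.1 (eBayes without covariates), with Benjamini-Hochberg adjustment over all of them. It was tested on simulated data with limma's moderated spread of each of these 20328 probes. It recovered 60% of 100 changes of 1.5-fold, 92% of 50 of 2-fold and 98% of 50 of 3-fold. It also made 17 false calls among the unchanged probes. Of the 82 names, 80 matched a RefSeq symbol (GRCh38.p14) and 2 a synonym, among them RNF219, now OBI1; 1 untested gene is not reported here by name.

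The members and gene lists were chosen with earlier results of these data known. Genes were named if called, if among the 8 largest falls or rises of genes detected on all arrays, if 1 group had only a bound, or for a known role; of the other lists, called genes and some of the largest changes were named. RNF224, RNF148, RNF138, RNF166, RNF24, RNF32, RNF126 and the genes with a signal on a single array or a seed match were named after their values were seen. Alternatives were other background corrections, scalings, filters, variance models and tests, a replicate block, the mean of a gene's probes, and leaving out each array. Figures were drawn with matplotlib 3.10.9.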

Additional observations from a re-analysis of the deposited data

How the results depend on the processing

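The 31 tested RNF genes named by the rules above were recomputed under 17 alternatives (2 genes could not be fitted where detection on all arrays was required). Genes named only after their values were seen were not among them. RNF141 was lower under all 17, and its adjusted p was above 0.05 without a filter (change -1.25, adjusted p = 0.41), in the methods' t-test after Benjamini-Hochberg adjustment (0.123), and without each array (changes -1.30 to -1.21). The 3 genes called lower became 5 with normexp background correction (3.73% of all probes were called lower there), 10 with an intensity trend (8.54%), 41 with spike-in scaling (44.6%) and 11 in the methods' t-test unadjusted (11.0%). They became 2 with detection on all 4 arrays, where RNF182 was not tested, and 0 without a filter, in the same test adjusted and without any 1 array (0 to 0), settings that called 0 probes lower in all. The 0 genes called higher became 1 of 68 (1.47%), RNF180, with normexp, the trend and spike-in scaling. Of all probes 3.90%, 6.63% and 2.54% were called higher there. In the methods' t-test unadjusted 2 genes were higher, against 9.27% of all probes. Over 1.5-fold lower were 1 gene with normexp (1.47%, against 0.364% of all probes) and 2 with detection required on all 4 arrays (3.12%, against 0.904%). With spike-in scaling there were 5 (7.35%, against 3.81%), and without a filter 6 of 82 (7.32%, against 5.46%). At a 2-fold limit 2 genes were lower, and without single arrays 3 to 4 were over 1.5-fold lower. The shares over all probes are not given for these. Over 1.5-fold higher were 0 genes with normexp (against 0.482% of all probes), spike-in scaling (against 1.33%) or a 2-fold limit. There were 4 without a filter (4.88%, against 6.53%) and 0 to 1 without single arrays. The median of -0.02 became -0.0083 with the percentile taken over detected probes, -0.21 with spike-in scaling, and -0.042 to -0.0043 without single arrays.

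The labels do not say whether mimic and control arrays of the same replicate number belong together. The difference between replicates 1 and 2 correlated at 0.03 between the groups, which does not show whether the samples were paired. The reported fit treats them as unpaired. With a replicate block RNF141 kept its change of -1.25 (adjusted p = 0.125), and 0 RNF genes were called, as were 0 of all 20328 probes. A slide or scan block could not be fitted, because all arrays shared 1 slide and 1 scan.

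Among uncalled genes, some changes turned sign. With spike-in scaling they were RNF7 (-0.15), RNF14 (-0.080), RNF19B (-0.028), RNF31 (-0.12), RNF43 (-0.17), RNF146 (-0.047), RNF168 (-0.18), RNF170 (-0.066) and RNF208 (-0.013). With quantile normalization it was RNF168 (-0.020). With normexp they were RNF8 (0.013) and RNF213 (0.0025), with the percentile over detected probes RNF8 (0.0022) and RNF130 (0.0010), and with the mean of all probes RNF7 (-0.012) and RNF213 (0.28). Without single arrays, the ranges were -0.088 to 0.041 for RNF5, -0.046 to 0.020 for RNF8, -0.060 to 0.023 for RNF40, -0.037 to 0.071 for RNF43, -0.053 to 0.024 for RNF130, -0.14 to 0.15 for RNF168 and -0.079 to 0.033 for RNF213. The causes were not tested.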
